A study of Mus musculus with 20 samples.

Results

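Microdissected glomeruli were compared with whole kidney sections across all genes of a 3′ mRNA count table. The table's header lines mark 4 libraries as control glomeruli and 4 as control sections that were not microdissected, and these 8 of the 20 samples of the series were used. All 8 came from kidneys of male wild-type mice of the strain C57BL6/OlaHsd that had received no treatment, and no allele or agent separated the groups. The study set out to describe how the segments of the renal microvasculature differ, and whole kidney served as its reference. Glomeruli were cut by laser from frozen sections on the basis of their shape, so a glomerular sample holds everything inside the cut outline, whereas a whole kidney section holds cortex and medulla and its own glomeruli. Microdissected RNA entered a low-input version of the library protocol with a fixed volume and more PCR cycles, so a difference between the tissues and a difference between the preparations cannot be told apart. The labels speak of biological replicates without naming the mouse behind each. A p-value here therefore sets a group difference against the spread of these samples only. Libraries carry the numbers 93, 96, 98 and 100 of the table, and 4 values in a row keep that order.

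The glomerulus is the capillary tuft at which the kidney filters blood. Its wall has 3 layers: a fenestrated endothelium, a basement membrane, and podocytes, epithelial cells whose interlocking actin-rich foot processes carry the slit diaphragm. Mesangial cells, contractile relatives of pericytes, hold the capillary loops together, and renin-producing cells lie where the arteriole enters. Most of the rest of the kidney is tubule, whose proximal part reclaims the filtrate with apical transporters and a large mitochondrial capacity and makes glucose, and whose distal parts adjust salt, acid and water.

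Total counts ran from 7299352 to 9792824 in glomeruli and from 7654464 to 12283098 in whole kidney, ranges that overlapped (exact two-sided permutation test p = 0.4). A glomerular library detected 12897 to 14164 genes with at least 1 count, and a whole kidney library 18272 to 20474 (exact two-sided permutation test p = 0.0286, the smallest that 4 against 4 samples allow). Across genes, Spearman correlations between libraries ran from 0.684 to 0.768 within glomeruli and from 0.961 to 0.985 within whole kidney, so glomerular replicates spread more widely. The test of each gene below shares its estimate of spread between both groups, and how this bears on the calls was not tested. The marker lists were written with earlier results of these data known, so their counts describe the libraries and do not test the labels. In glomeruli 21 of 22 podocyte markers and 19 of 21 endothelial markers were higher. There 18 of 22 proximal tubule markers were lower, and no member of these 3 lists was called the other way. Podocyte markers took 1.43 to 1.64% of the counts in glomeruli and 0.0588 to 0.0652% in whole kidney. Proximal tubule markers still took 0.973 to 1.34% of glomerular counts, against 5.39 to 5.82% in whole kidney, and none of them was at 0 counts over the 4 glomerular libraries. Mesangial markers (11 of 13 higher, 1 lower) and the hemoglobin and platelet list (5 of 7 higher, 1.38 to 1.75% against 0.238 to 0.459% of the counts) also took a larger share in glomeruli. Hemoglobin genes are close copies, so their reads may be shared. In the list for smooth muscle and renin cells, 4 of 9 were higher, renin (Ren1) among them, whereas Acta2, Myh11, Tagln and Cnn1 of contractile smooth muscle were not called. Leukocyte markers (1 of 9 higher) took 0.0399 to 0.0588% against 0.0196 to 0.0246% of the counts. Fibroblast markers (1 higher and 4 lower of 8) took 0.0259 to 0.0415% against 0.0319 to 0.0371%, ranges that overlap, and parietal epithelial markers of the capsule (2 of 6 higher) 0.0439 to 0.0636% against 0.0101 to 0.0122%. Markers of the thick ascending limb (5 of 10 lower), of the distal and connecting tubule (7 of 10) and of the collecting duct (7 of 14) had no member called higher and none at 0 counts in glomeruli. They took 0.0948 to 0.163%, 0.152 to 0.185% and 0.0123 to 0.02% of glomerular counts against 0.359 to 0.383%, 0.319 to 0.35% and 0.0744 to 0.0878% of whole kidney counts. What part the levels of these marker lists have in each result was not tested.

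**Figure D1:**
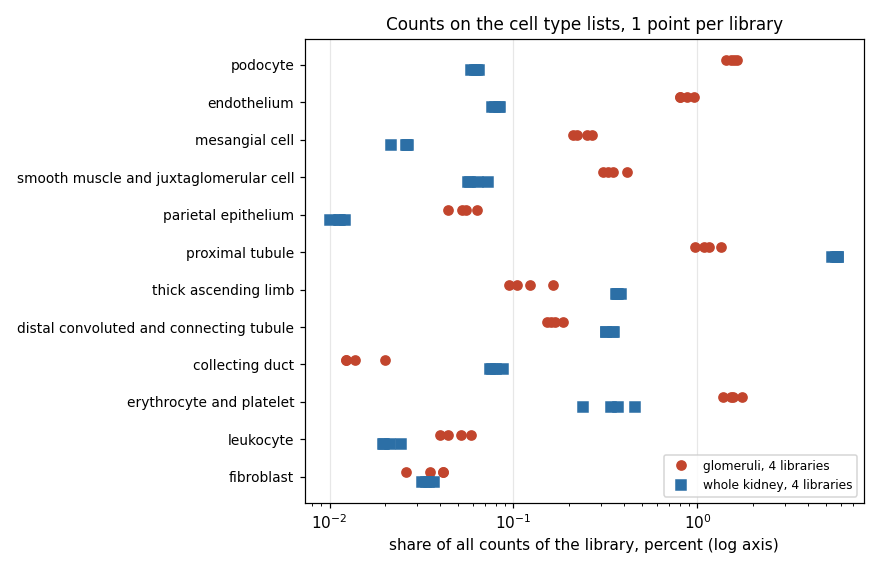
Share of each library's counts that fell on the members of 12 cell type lists, in percent on a log axis. Red circles are the 4 glomerular libraries and blue squares the 4 whole kidney libraries. The groups do not overlap for any list except the fibroblast list, with podocyte markers at 1.43 to 1.64% in glomeruli and 0.0588 to 0.0652% in whole kidney.

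A gene was called higher or lower in glomeruli at a false discovery rate (FDR, the Benjamini-Hochberg adjusted p of edgeR's quasi-likelihood test) under 0.05 where the difference also exceeded 1 on the log2 scale in either direction. The log2 fold change (log2FC) is positive where glomeruli were higher. After the ± sign stands an approximate standard error, the size of the log2FC divided by the square root of the test's F statistic. Of 13041 genes tested, 1508 (11.6%) were higher and 1319 (10.1%) lower, 21.7% in all, and the median log2FC of the 13041 was 0.15. Every glomerular library lay above every whole kidney library for 1377 of the 1508, and below for 1314 of the 1319. Of the genes called lower, 126 had 0 counts in all 4 glomerular libraries, whereas none of the genes called higher was at 0 in whole kidney. Those 126 passed the filter on low counts through whole kidney alone. Whole kidney sections also hold glomeruli and their libraries detected more genes, so this contrast is a description only. Fitted with all 20 libraries of the series in place of the 8, the same contrast gave 219 higher and 203 lower genes. Scaling by library totals alone moved the median of all genes to 0.37 and gave 1892 higher and 1108 lower genes. Because these are pieces of tissue, fewer cells of a type and less RNA per cell cannot be told apart in any result. Levels are CPM, counts scaled to the same library total after correction for composition. The gene groups are 71 lists of pathways, protein families and cell types. Small list counts move easily: of the 142 counts of members higher or lower, 60 changed by more than 1.5 times with 1 library left out, 48 of them counts of 3 or fewer, and the remaining 12 are given beside their lists.

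**Figure D2:**
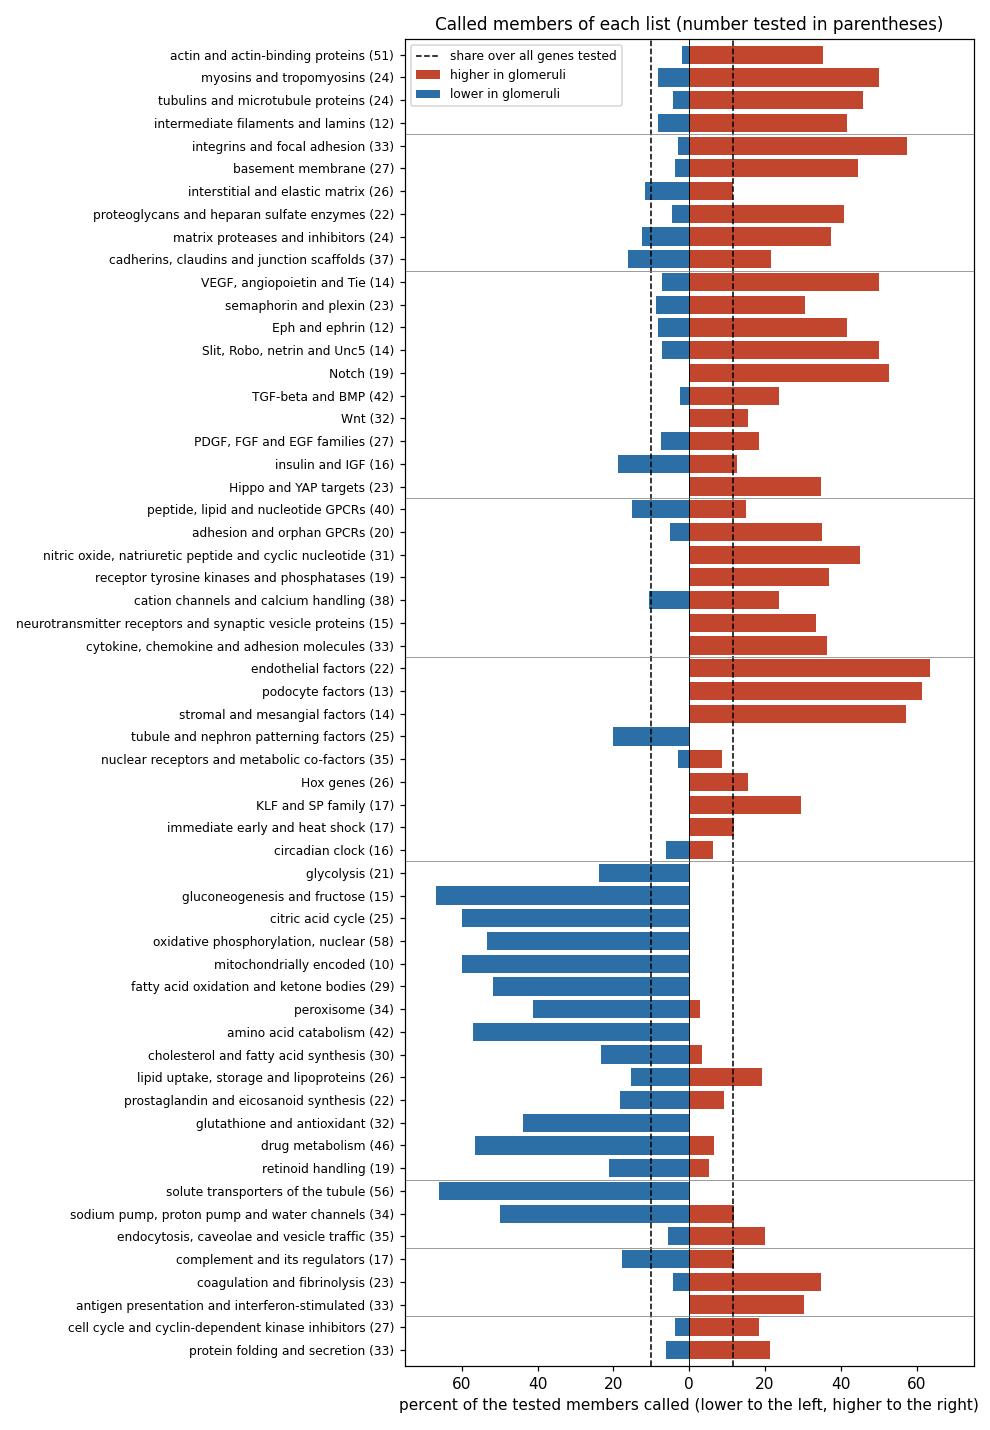
Percent of the tested members of 58 gene lists called higher (red, to the right) or lower (blue, to the left) in glomeruli; the number tested is in parentheses and the grey lines part 9 themes. The dashed lines are the shares over all genes tested, 11.6% higher and 10.1% lower. The 4 cytoskeleton lists and the endothelial, podocyte and stromal factor lists reach further to the right than to the left, and the solute transporter list and the metabolism lists other than lipid uptake further to the left.

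The cytoskeleton lists held 62 members higher and 6 lower among 150 tested. Foot processes are built on actin, and of the actin and actin-binding proteins 18 of 51 were higher and 1 was lower, with a median log2 fold change of 0.73. Pdlim2, which links actinin to signalling proteins, measured 261, 270, 261 and 279 CPM in glomeruli and 21.2, 33.5, 28.3 and 33.1 CPM in whole kidney. The glomerular libraries were close to one another and every one was far above whole kidney (log2FC 3.21 ± 0.23, FDR 8.87e-06). Flna, filamin A, which crosslinks actin filaments, was 4.92-fold higher by the ratio of means (log2FC 2.30 ± 0.22, FDR 5.7e-05). Cald1, caldesmon, a regulator of actomyosin in smooth muscle and mesangial cells, was 5.27-fold higher (log2FC 2.40 ± 0.23, FDR 6.16e-05). Synaptopodin (Synpo), the actin-associated protein of the foot process, had the smallest p of the list and measured 1520, 1420, 1450 and 1960 CPM in glomeruli. Myosins and tropomyosins were the cytoskeletal list with the largest share called higher, 12 of 24, with 2 lower. Myl6, the non-muscle myosin light chain, measured 1660, 1640, 1460 and 1700 CPM in glomeruli and 149, 144, 145 and 145 CPM in whole kidney, with little spread in either group (log2FC 3.47 ± 0.15, FDR 6.78e-07). Myo1e, a class I myosin of the podocyte membrane whose loss causes proteinuria, measured 242, 261, 272 and 288 CPM in glomeruli and 20.9, 33.1, 21.8 and 18.5 CPM in whole kidney (log2FC 3.50 ± 0.25, FDR 9.97e-06). Its relative Myo1d was 9.91-fold higher. Myh14, a non-muscle myosin heavy chain of epithelia, went the other way, with 0.121, 0.265, 0.264 and 0.401 CPM in glomeruli against 20.4, 21.4, 22.1 and 18.5 in whole kidney (log2FC -6.22 ± 0.91, FDR 0.000784).

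Regulators of the small GTPases that set actin dynamics included members higher in glomeruli. Srgap1, a Rac- and Cdc42-directed GTPase-activating protein that acts downstream of Robo receptors, measured 350, 342, 353 and 285 CPM in glomeruli and 11.5, 11.2, 14.2 and 9.86 CPM in whole kidney (log2FC 4.83 ± 0.23, FDR 1.17e-06). Dlc1, a GTPase-activating protein of focal adhesions, measured 1020, 1060, 617 and 611 CPM in glomeruli, with 93 and 96 above 98 and 100, and 69.9, 63.1, 70.4 and 75.6 in whole kidney (log2FC 3.57 ± 0.25, FDR 8e-06). Rhpn1, a GTPase-binding protein known from podocytes, was at 442, 468, 212 and 478 CPM, its lowest value in 98, against 18.2, 14.8, 13 and 11.7 (log2FC 4.80 ± 0.33, FDR 7.36e-06). Pak1, a kinase effector of Rac and Cdc42, was 8.9-fold higher. Tubulins and microtubule proteins had 11 of 24 members higher and 1 lower. Mapt, the microtubule protein tau best known from neurons, measured 1600, 1370, 1030 and 1270 CPM in glomeruli and 272, 299, 329 and 285 CPM in whole kidney (log2FC 2.15 ± 0.18, FDR 2.5e-05). Map4, its counterpart in other tissues, was 7.12-fold higher. Among the tubulins, Tubb2b was 6.2-fold and Tuba1b 5.42-fold higher and Tuba4a lower (log2FC -1.96 ± 0.40, FDR 0.0046). Tubulin genes are close copies, so reads may be shared between them. Of the intermediate filaments and lamins 5 of 12 were higher, among them the mesenchymal filaments Vim (log2FC 2.72 ± 0.28, FDR 8.08e-05) and Des (log2FC 3.90 ± 0.39, FDR 7.12e-05) and the podocyte filament Nes (log2FC 5.46 ± 0.28, FDR 1.88e-06). Krt19, a keratin of simple epithelia and the collecting system, had no count in any glomerular library and 5.75, 2.84, 11.4 and 17.4 CPM in whole kidney, at least 108-fold lower when 3 counts over the group are taken as the floor (FDR 0.00457).

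**Figure D3:**
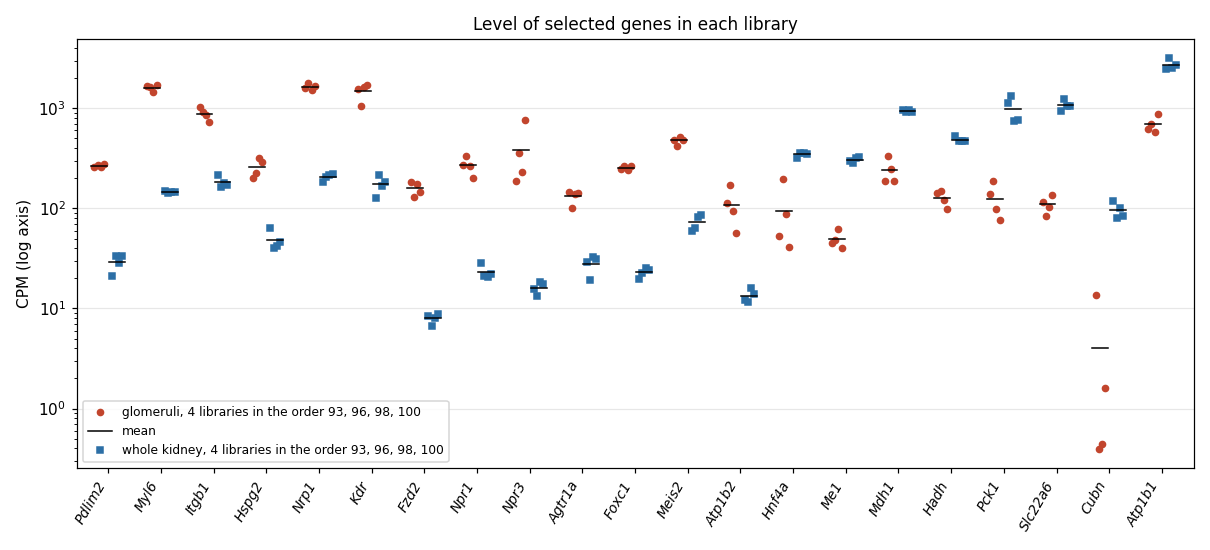
Level of 21 genes in each of the 8 libraries, in CPM on a log axis. Red circles are glomeruli and blue squares whole kidney, each in the order 93, 96, 98 and 100, and black lines are group means. The groups do not overlap for any of the 21 genes, and the glomerular values of Npr3, Hnf4a and Cubn spread most widely, with Cubn from 0.398 to 13.6 CPM.

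Cells of the tuft are tied to the basement membrane by integrins, and the integrin and focal adhesion list had 19 of 33 members higher, 1 lower and a median log2 fold change of 1.88. Itga3, which with Itgb1 forms the laminin receptor of the podocyte, measured 223, 82.5, 182 and 150 CPM in glomeruli and 14.4, 15, 12.9 and 11.9 CPM in whole kidney (log2FC 3.56 ± 0.35, FDR 6.26e-05). Its partner Itgb1 measured 1020, 909, 865 and 722 CPM in glomeruli and 216, 164, 180 and 173 CPM in whole kidney (log2FC 2.26 ± 0.18, FDR 1.87e-05). The tetraspanin Cd151, which stabilises that integrin pair, was 3.95-fold higher (log2FC 1.98 ± 0.17, FDR 3.1e-05). Itga8, the integrin alpha chain of mesangial cells, was 10.8-fold higher (log2FC 3.44 ± 0.31, FDR 4.18e-05). In all 4 of these genes no glomerular library reached down to whole kidney. Basement membrane genes were higher for 12 of 27. Hspg2, perlecan, a heparan sulfate proteoglycan of basement membranes, measured 202, 224, 321 and 291 CPM in glomeruli and 63.1, 39.8, 41.9 and 46.6 CPM in whole kidney (log2FC 2.44 ± 0.25, FDR 9.12e-05). Sparc, a collagen-binding matrix protein, measured 2870, 2710, 2760 and 3080 CPM in glomeruli and 319, 339, 324 and 339 CPM in whole kidney (log2FC 3.11 ± 0.14, FDR 1.06e-06). Col18a1, the chain that gives endostatin, was 3.64-fold higher (log2FC 1.86 ± 0.19, FDR 9.26e-05). Over all genes the shares were 11.6% higher and 10.1% lower. Unlike basement membrane, the fibrillar and elastic interstitial matrix had 3 higher and 3 lower of 26, near those shares, and a median of 0.10. There Bgn, the small proteoglycan biglycan, was 3.74-fold higher (log2FC 1.90 ± 0.18, FDR 5.31e-05). Its relative Dcn, decorin, was lower at 26.8, 71.9, 30.1 and 32.2 CPM, 96 standing above the other 3, against 133, 132, 133 and 127 (log2FC -1.71 ± 0.34, FDR 0.00452).

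Proteoglycans and heparan sulfate enzymes, which give the filter its negative charge, had 9 of 22 members higher and 1 lower. Hs3st6, a heparan sulfate 3-O-sulfotransferase, measured 96.1, 84.6, 83.7 and 73.9 CPM in glomeruli and 3.27, 1.65, 4.15 and 2.52 CPM in whole kidney (log2FC 4.85 ± 0.43, FDR 3.7e-05). The membrane-anchored glypicans Gpc1 and Gpc3 were 5.41-fold and 4.67-fold higher, and the syndecan Sdc3 4.73-fold. Matrix proteases and inhibitors had 9 of 24 higher. Timp2, an inhibitor of metalloproteinases, measured 2190, 1230, 1470 and 1530 CPM in glomeruli and 134, 154, 135 and 133 CPM in whole kidney (log2FC 3.53 ± 0.21, FDR 3.85e-06). The aggrecanases Adamts1 and Adamts5 were 6.17-fold and 8.67-fold higher. The 3 called lower were of another kind and included Mep1a (log2FC -2.92 ± 0.18, FDR 3.85e-06) and Mep1b (log2FC -4.61 ± 0.64, FDR 0.000559), the meprin subunits of the proximal brush border, and Plau, urokinase, which tubules secrete (log2FC -2.68 ± 0.45, FDR 0.00179). Junction genes split, with 8 higher and 6 lower of 37 and a median of -0.39. Higher members were the slit diaphragm scaffold Magi2 (log2FC 4.32 ± 0.26, FDR 3.85e-06) and the endothelial adhesion molecule Esam (log2FC 1.89 ± 0.27, FDR 0.000657). Pard3b, a polarity protein, measured 217, 213, 270 and 868 CPM in glomeruli with 100 far above the rest (log2FC 3.52 ± 0.48, FDR 0.000536). Of the lower members, Cldn10, a claudin of tubule epithelium, measured 27.5, 36.1, 31.8 and 31.1 CPM in glomeruli and 339, 273, 332 and 323 CPM in whole kidney (log2FC -3.32 ± 0.20, FDR 3.94e-06). Cldn2, the leaky claudin of the proximal tubule, was lower too (log2FC -1.81 ± 0.25, FDR 0.000624).

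Podocytes make the ligand and endothelium carries the receptors of the best known signalling axis of the tuft, that of VEGF, whose list had 7 of 14 members higher and 1 lower. The receptor Kdr measured 1560, 1050, 1640 and 1710 CPM in glomeruli and 128, 215, 169 and 184 CPM in whole kidney (log2FC 3.10 ± 0.23, FDR 1.16e-05). The co-receptor Nrp1 measured 1600, 1770, 1530 and 1680 CPM in glomeruli and 184, 206, 217 and 223 CPM in whole kidney (log2FC 2.99 ± 0.16, FDR 1.88e-06). Flt1, which also acts as a decoy receptor, measured 456, 605, 375 and 384 CPM in glomeruli and 94.3, 135, 116 and 144 CPM in whole kidney (log2FC 1.89 ± 0.23, FDR 0.00023). All 3 receptors were separate between the groups in every library. Families best known from axon guidance had more members called higher than lower. Of the semaphorins and plexins 7 of 23 were higher and 2 lower, all of them semaphorins and none a plexin receptor. Sema5a, a membrane semaphorin, measured 563, 485, 702 and 1200 CPM in glomeruli and 58, 75.8, 68.4 and 82.8 CPM in whole kidney, highest in glomerular 100 (log2FC 3.37 ± 0.31, FDR 4.05e-05). Sema6c and Sema4c were 23.8-fold and 7.27-fold higher. Of the Eph receptors and ephrins 5 of 12 were higher and 1 lower. Efnb1, the ephrin found at the slit diaphragm, measured 419, 328, 398 and 691 CPM in glomeruli and 36.3, 36.8, 30.4 and 28.1 CPM in whole kidney (log2FC 3.80 ± 0.28, FDR 1.08e-05). Its receptor Ephb1 measured 70.6, 56, 69.6 and 100 CPM in glomeruli and 4.05, 3.74, 3.63 and 4.21 CPM in whole kidney (log2FC 4.24 ± 0.41, FDR 5.88e-05). Efnb2, the arterial ephrin, was 10.5-fold higher (log2FC 3.40 ± 0.52, FDR 0.00108). In the Slit, Robo, netrin and Unc5 list 7 of 14 were higher, a count that was 3 or 4 with whole kidney 93, 98 or 100 left out. Robo2, the Slit receptor of podocytes, was at 102, 46.5, 74.4 and 213 CPM against 11.9, 13.6, 13.1 and 10.3 (log2FC 3.15 ± 0.48, FDR 0.00101). Unc5b, the netrin receptor of endothelium, was 7.46-fold higher (log2FC 2.90 ± 0.35, FDR 0.000234).

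Notch had 10 of 19 members higher and none lower (median 2.09). The ligand Jag2 was 22.4-fold higher (log2FC 4.47 ± 0.55, FDR 0.000278). The endothelial receptor Notch4 was 7.83-fold higher (log2FC 2.97 ± 0.39, FDR 0.000441) and the mural cell receptor Notch3 7.68-fold (log2FC 2.94 ± 0.46, FDR 0.00128). Maml3, a co-activator, was 15.4-fold higher (log2FC 3.94 ± 0.30, FDR 1.22e-05). In the much larger TGF-beta and BMP list most members were not called: 10 of 42 were higher, 1 lower and 31 neither. Among the members higher, Acvrl1, a receptor of endothelium, was at 312, 98, 282 and 338 CPM, lowest in 96, against 18.7, 19.4, 19.1 and 22.4 (log2FC 3.69 ± 0.38, FDR 8.71e-05). Its co-receptor Eng measured 173, 223, 160 and 185 CPM in glomeruli and 32.4, 34, 32.8 and 33.1 CPM in whole kidney (log2FC 2.49 ± 0.22, FDR 3.43e-05). Bmpr2, their type II partner, was 3.73-fold higher (log2FC 1.90 ± 0.29, FDR 0.00098). Id2, a target of BMP signalling, was lower (log2FC -1.25 ± 0.19, FDR 0.000935). Wnt genes were called in 5 of 32 cases, all higher, a share not far above the 11.6% higher over all genes. Of the 5, Fzd2 is a receptor and measured 185, 131, 176 and 146 CPM in glomeruli and 8.49, 6.73, 8.04 and 8.77 CPM in whole kidney (log2FC 4.31 ± 0.27, FDR 5.12e-06). Secreted antagonists made up 3 of the others. Dkk2 measured 279, 603, 588 and 986 CPM in glomeruli and 40.4, 45, 66.7 and 55.1 CPM in whole kidney. Sfrp2 was 35.9-fold higher (log2FC 5.15 ± 0.38, FDR 1.08e-05) and Wif1 37.8-fold (log2FC 5.23 ± 0.65, FDR 0.000278). The Wnt ligands tested, Wnt4, Wnt5a, Wnt5b and Wnt7b, were not called.

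The growth factor lists of the PDGF, FGF and EGF families had 5 of 27 members higher (3 with whole kidney 98 or 100 left out) and 2 lower. Most calls fell on PDGF genes. The receptor Pdgfrb of mesangial cells measured 281, 241, 273 and 119 CPM in glomeruli and 33.7, 27.4, 35.8 and 28 CPM in whole kidney (log2FC 2.87 ± 0.31, FDR 0.000108). The endothelial ligand Pdgfb measured 26.4, 101, 125 and 57.1 CPM against 23.4, 8.08, 15.4 and 6.73 (log2FC 2.53 ± 0.59, FDR 0.0101). Pdgfa was 3.35-fold higher (log2FC 1.74 ± 0.30, FDR 0.00234). The 20 members not called included the receptors Egfr and Fgfr1. Insulin and IGF genes had 2 higher and 3 lower of 16, where 11.6% of all genes were higher and 10.1% lower. The 3 lower calls were 0 or 1 with any 1 whole kidney library left out. Igfbp5, an IGF-binding protein, was 2.26-fold higher (log2FC 1.17 ± 0.21, FDR 0.003), with glomerular 93 the lowest of its group. Hippo pathway genes, which respond to stretch and cell shape, were higher for 8 of 23 (5 without whole kidney 96) and lower for none. Amotl1, an angiomotin that binds YAP at junctions, measured 594, 878, 663 and 806 CPM in glomeruli and 46.6, 65.2, 65.1 and 66.2 CPM in whole kidney (log2FC 3.60 ± 0.22, FDR 3.85e-06). The kinase Lats2 was 5.09-fold higher (log2FC 2.35 ± 0.28, FDR 0.000243). Axl, a receptor kinase that YAP induces, measured 364, 264, 443 and 384 CPM in glomeruli and 45.5, 49.8, 40.7 and 43.4 CPM in whole kidney (log2FC 3.02 ± 0.22, FDR 1.08e-05).

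Receptors for hormones and mediators of filtration were called in both directions, 6 higher and 6 lower of 40 tested (10 higher without glomerular 93). Both shares were not far above the 11.6% higher and 10.1% lower over all genes. Agtr1a, the angiotensin II receptor of mesangial cells and arterioles, measured 147, 101, 139 and 143 CPM in glomeruli and 29.3, 19.4, 32.4 and 31.1 CPM in whole kidney (log2FC 2.24 ± 0.28, FDR 0.000292). Ptger4, a prostaglandin E2 receptor, measured 59.5, 48.5, 86.7 and 145 CPM against 5.09, 6.43, 6.4 and 8.17 (log2FC 3.70 ± 0.46, FDR 0.000284). Ramp2, the co-receptor for adrenomedullin on endothelium, was 6.89-fold higher (log2FC 2.78 ± 0.31, FDR 0.000155). These values lay above whole kidney in every glomerular library. Casr, the calcium-sensing receptor of the thick limb, had no glomerular count against 8.49, 13.2, 10.7 and 5.65 CPM in whole kidney, at least 110-fold lower (FDR 0.00319). Adhesion and orphan receptors were higher for 7 of 20 (4 without whole kidney 96 or 98). Adgrf5 of endothelium measured 176, 206, 188 and 190 CPM in glomeruli and 46.9, 66.1, 56.7 and 58.2 CPM in whole kidney (log2FC 1.74 ± 0.21, FDR 0.000228) and Adgre5 was higher as well (log2FC 2.81 ± 0.37, FDR 0.000435).

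The nitric oxide, natriuretic peptide and cyclic nucleotide list had 14 of 31 members higher and none lower, with 9 higher when any 1 whole kidney library was left out. Natriuretic peptides raise filtration, chiefly through Npr1. Npr1, the guanylyl cyclase that makes cyclic GMP on binding them, measured 273, 336, 268 and 199 CPM in glomeruli and 28.7, 20.9, 20.5 and 21.9 CPM in whole kidney (log2FC 3.55 ± 0.25, FDR 9.02e-06). Npr3, which clears the peptides, measured 189, 360, 229 and 755 CPM in glomeruli, highest in 100, against 15.7, 13.2, 18.2 and 17.5 (log2FC 4.57 ± 0.46, FDR 7.49e-05). Adcy4, an adenylyl cyclase, was 17.2-fold higher (log2FC 4.10 ± 0.30, FDR 1.01e-05). Pde4b, a phosphodiesterase for cyclic AMP, was 5.24-fold higher (log2FC 2.39 ± 0.28, FDR 0.000187). Receptor tyrosine kinases and phosphatases were higher for 7 of 19 and lower for none. The podocyte phosphatase Ptpro measured 219, 147, 218 and 189 CPM in glomeruli and 8.88, 6.43, 6.92 and 6.25 CPM in whole kidney (log2FC 4.76 ± 0.28, FDR 3.81e-06). The endothelial phosphatase Ptprb was higher (log2FC 2.87 ± 0.29, FDR 7.25e-05). Mertk, a receptor for clearance of dying cells, measured 400, 635, 623 and 576 CPM in glomeruli and 102, 112, 110 and 98.6 CPM in whole kidney (log2FC 2.40 ± 0.20, FDR 2.43e-05).

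Cation channels and calcium handling genes were higher for 9 and lower for 4 of 38, and the lower count was 7 and 9 without glomerular 96 and 100. Piezo2, a mechanically gated channel, measured 20.4, 94, 39.9 and 83.8 CPM against 4.18, 6.13, 8.73 and 9.26, the libraries of glomeruli differing among themselves by several-fold (log2FC 3.07 ± 0.59, FDR 0.00372). Itpr3, an intracellular calcium release channel, ranged from 7.35 CPM in glomerular 100 to 150 in 93, against 4.31, 3.29, 5.1 and 5.41 in whole kidney (log2FC 4.29 ± 0.81, FDR 0.00339). Orai1, the pore of store-operated calcium entry, was 3.61-fold higher (log2FC 1.85 ± 0.38, FDR 0.00468). The potassium channels Kcnj16 (log2FC -1.56 ± 0.18, FDR 0.00019) and Kcnj15 (log2FC -1.31 ± 0.18, FDR 0.000569), both of tubule epithelium, were lower. Of 35 genes best known from synapses 20 did not pass the filter on low counts, and of the 15 tested 5 were higher and none lower. Rab3b, a GTPase of secretory vesicles, measured 81.1, 121, 101 and 70.4 CPM in glomeruli and 2.09, 2.39, 3.72 and 1.8 CPM in whole kidney (log2FC 5.21 ± 0.43, FDR 2.29e-05). Gabrb1, a subunit of the GABA type A receptor, measured 24.1, 18.7, 36.6 and 72.6 CPM in glomeruli and 0.523, 0.748, 1.04 and 0 CPM in whole kidney (log2FC 5.99 ± 1.06, FDR 0.00257). Both were higher in every glomerular library than in any of whole kidney. Cytokine receptors, adhesion molecules and their signal carriers were higher for 12 of 33 and lower for none. Icam2, a constitutive endothelial adhesion molecule, measured 238, 200, 200 and 309 CPM in glomeruli and 15.8, 19.4, 15.1 and 15.3 CPM in whole kidney (log2FC 3.85 ± 0.25, FDR 6.1e-06). The sialomucin Cd34 was 5.06-fold higher, the TNF receptor Tnfrsf1a 3.56-fold and the signal carrier Stat3 3.62-fold.

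Transcription factors divided by cell class. Of the endothelial factors 14 of 22 were higher (9 with any 1 whole kidney library left out), of the podocyte factors 8 of 13, and of the stromal and mesangial factors 8 of 14, with none lower in any of the 3 lists. Epas1, the hypoxia-inducible factor of endothelium, measured 820, 934, 704 and 603 CPM in glomeruli and 109, 91.4, 116 and 113 CPM in whole kidney (log2FC 2.83 ± 0.20, FDR 8.6e-06). Klf2, induced by laminar flow, was 5.9-fold higher (log2FC 2.56 ± 0.28, FDR 0.00013), and the T-box gene Tbx3 13.9-fold (log2FC 3.80 ± 0.29, FDR 1.35e-05). Foxc1, in both the endothelial and the podocyte list, measured 246, 263, 241 and 268 CPM in glomeruli and 19.5, 22.7, 25.5 and 24.2 CPM in whole kidney, with little spread in either group (log2FC 3.47 ± 0.21, FDR 3.85e-06). Wt1, the master regulator of podocytes, measured 390, 543, 323 and 229 CPM against 8.62, 8.53, 11.2 and 9.74 (log2FC 5.28 ± 0.32, FDR 3.85e-06). Among stromal factors Meis2, a homeobox gene, measured 485, 423, 518 and 482 CPM in glomeruli and 58.9, 63.9, 82.3 and 85.5 CPM in whole kidney (log2FC 2.71 ± 0.20, FDR 1.09e-05). Gata3, needed in mesangial cells, measured 146, 178, 178 and 243 CPM in glomeruli and 31.7, 21.5, 34.9 and 37.7 CPM in whole kidney (log2FC 2.56 ± 0.28, FDR 0.000114). Ebf1 was 6.11-fold higher (log2FC 2.61 ± 0.25, FDR 6.16e-05).

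Of the tubule and nephron patterning factors 5 of 25 were lower and none higher, with a median of -1.88; the lower count was 9 or 10 without glomerular 93, 96 or 100. Hnf4a, the regulator of proximal tubule identity, measured 53.5, 195, 87.7 and 41.4 CPM, highest in 96, against 322, 357, 360 and 349 (log2FC -1.88 ± 0.43, FDR 0.00906). Tfap2a, a factor of the distal nephron, had no glomerular count against 4.57, 2.54, 3.54 and 3.97 CPM, at least 42.3-fold lower (FDR 0.00305). Nuclear receptors and their co-factors were mostly not called, 3 higher and 1 lower of 35, shares below those over all genes. The retinoic acid receptor Rarg measured 61.3, 56.7, 23.2 and 158 CPM against 12.4, 13.5, 10.5 and 11.5 (log2FC 2.64 ± 0.56, FDR 0.00591). Nr2f1, an orphan receptor, was 6.96-fold higher (log2FC 2.79 ± 0.61, FDR 0.00685). Of the Hox genes, which keep positional identity, 4 of 26 were higher and none lower, not far above the 11.6% higher over all genes. Among these 4, Hoxc6 was 3.36-fold (log2FC 1.75 ± 0.25, FDR 0.000711) and Hoxd4 2.8-fold (log2FC 1.48 ± 0.25, FDR 0.00201) higher. The KLF and SP family had 5 of 17 higher, such as Klf7 (log2FC 2.42 ± 0.27, FDR 0.000155). Immediate early and heat shock genes, which respond to handling of tissue, had 2 of 17 higher and none lower. That share higher was near the 11.6% over all genes tested. Jun, of the AP-1 complex, measured 143, 132, 81.9 and 128 CPM in glomeruli and 26.4, 25.4, 27.4 and 57.6 CPM in whole kidney (log2FC 1.83 ± 0.35, FDR 0.00366). The circadian clock list had 1 higher, the core factor Arntl (log2FC 2.40 ± 0.41, FDR 0.00212), and 1 lower of 16, shares below those over all genes.

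Promoters of RefSeq (GRCm38.p6, 250 bases before to 50 after the start) were searched on both strands for 4 motifs. With a chromosome left out of the search, they were found for 9888 of the tested genes. The HNF4 letters CAAAGTCCA stood in 0.741% (9 of 1215) of the promoters of genes called lower. Their share was 0.38% (6 of 1579) for genes called higher and 0.465% (59 of 12693) for all genes tested. For the palindromic HNF1 motif the shares were 0.165% (2 of 1215 promoters), 0% (0 of 1579) and 0.063% (8 of 12693), so they rest on very few promoters. The ETS letters ACCGGAAGT stood in 1.56%, 1.08% and 2.15%, and the TATA box TATAAA in 10.8%, 7.28% and 7.52%. These shares are a description and no test was run. The 250 bases before the start are printed for 4 genes, 3 lower and 1 higher in glomeruli, because each holds a motif near its start; they were picked after values and matches were seen. Capitals mark the HNF4 letters in Slc3a1, a subunit of the cystine transporter, and the TATA box in the others: Kap, the androgen-induced kidney protein, Cyp2e1, a cytochrome P450, and Ren1, renin. The TATAAA letters also stand in the Slc3a1 sequence, where they are left in lower case. The regions, plus strand for all but Kap, are chr17:85028097-85028346, chr6:133853668-133853917, chr7:140763569-140763818 and chr1:133350424-133350673.
Slc3a1: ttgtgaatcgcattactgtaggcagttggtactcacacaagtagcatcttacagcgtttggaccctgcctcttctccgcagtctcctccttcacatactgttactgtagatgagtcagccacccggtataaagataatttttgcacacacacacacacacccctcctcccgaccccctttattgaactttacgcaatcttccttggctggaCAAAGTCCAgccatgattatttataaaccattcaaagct
Kap: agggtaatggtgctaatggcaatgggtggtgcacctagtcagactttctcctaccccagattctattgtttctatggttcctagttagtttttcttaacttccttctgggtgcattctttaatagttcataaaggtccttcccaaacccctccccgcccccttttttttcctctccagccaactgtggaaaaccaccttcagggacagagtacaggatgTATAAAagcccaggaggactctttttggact
Cyp2e1: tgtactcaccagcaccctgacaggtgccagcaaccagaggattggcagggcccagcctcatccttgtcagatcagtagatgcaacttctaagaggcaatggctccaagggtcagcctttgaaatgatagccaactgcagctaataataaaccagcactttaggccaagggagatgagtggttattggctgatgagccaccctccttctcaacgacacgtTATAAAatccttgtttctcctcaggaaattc
Ren1: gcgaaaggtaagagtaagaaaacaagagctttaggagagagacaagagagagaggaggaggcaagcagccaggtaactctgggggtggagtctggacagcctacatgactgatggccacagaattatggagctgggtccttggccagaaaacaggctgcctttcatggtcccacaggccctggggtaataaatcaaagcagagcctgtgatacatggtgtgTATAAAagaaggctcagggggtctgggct
The level of Ren1 was 836, 1580, 813 and 1980 CPM in glomeruli and 60.7, 57.9, 62.6 and 62.6 CPM in whole kidney (log2FC 4.42 ± 0.32, FDR 1.08e-05), with glomerular 96 and 100 above 93 and 98. Kap measured 5450, 3420, 4720 and 5220 CPM in glomeruli and 35900, 37300, 37500 and 36600 CPM in whole kidney (log2FC -2.97 ± 0.19, FDR 4.4e-06). Cyp2e1 measured 74.1, 102, 50 and 77.2 CPM in glomeruli and 607, 449, 538 and 621 CPM in whole kidney (log2FC -2.87 ± 0.25, FDR 3.1e-05). Slc3a1 measured 66.6, 10.5, 30.5 and 29 CPM in glomeruli and 325, 259, 318 and 282 CPM in whole kidney (log2FC -3.11 ± 0.47, FDR 0.000955).

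Metabolism went the other way from the cytoskeleton: of 409 tested members over 14 lists 179 were lower and 13 higher. Of the gluconeogenesis and fructose genes 10 of 15 were lower and none higher (median -1.75). Pck1, the gate of gluconeogenesis, measured 140, 187, 98 and 76.3 CPM in glomeruli and 1130, 1320, 747 and 771 CPM in whole kidney (log2FC -2.99 ± 0.32, FDR 0.000117). Glycerol kinase Gk was lower at 71, 104, 70.8 and 63.7 CPM against 533, 365, 511 and 530 (log2FC -2.65 ± 0.23, FDR 3.1e-05) and so was Sord, sorbitol dehydrogenase (log2FC -1.87 ± 0.19, FDR 7.62e-05). Glycolysis proper had 5 of 21 lower and none higher (median -1.08; 3 lower with scaling by library totals alone). Among the lower members were triosephosphate isomerase Tpi1 (log2FC -1.64 ± 0.26, FDR 0.00138) and the lactate dehydrogenase chain Ldhb (log2FC -1.58 ± 0.29, FDR 0.00303). Pgam1, phosphoglycerate mutase, had no count in any glomerular library and 10.5, 8.98, 9.42 and 9.38 CPM in whole kidney (at least 111-fold lower, FDR 0.00298). Pgam1 has processed copies in the genome that may share its reads, so this value is uncertain. The citric acid cycle had 15 of 25 members lower and none higher (median -1.37). Mdh1, cytosolic malate dehydrogenase, measured 188, 337, 247 and 188 CPM in glomeruli and 966, 928, 968 and 927 CPM in whole kidney (log2FC -1.98 ± 0.22, FDR 0.000125). The isocitrate dehydrogenase Idh1 measured 110, 92.9, 142 and 65.3 CPM against 644, 426, 403 and 349 (log2FC -2.15 ± 0.29, FDR 0.000445). Me1, malic enzyme, which supplies NADPH, measured 45, 48.7, 62.9 and 40.1 CPM in glomeruli and 294, 285, 318 and 328 CPM in whole kidney (log2FC -2.64 ± 0.21, FDR 2.07e-05).

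**Figure D4:**
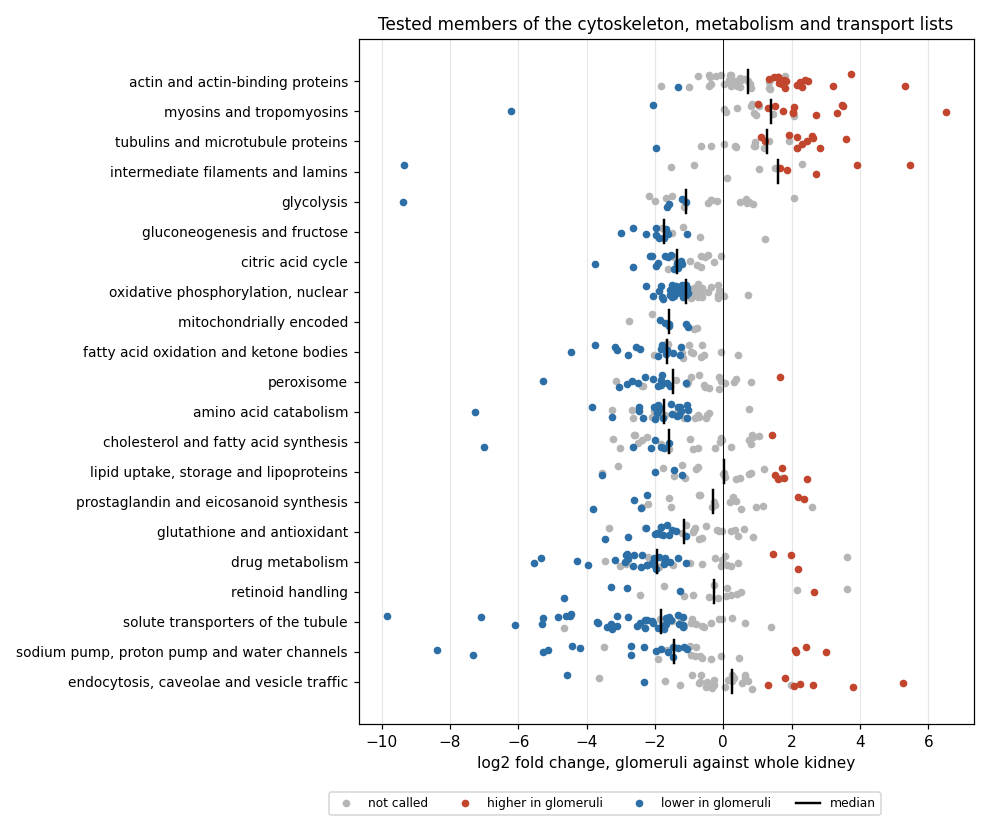
Log2 fold change of glomeruli against whole kidney for the tested members of the cytoskeleton (upper 4), metabolism (next 14) and transport (lower 3) lists. Red points were called higher, blue points lower and grey points neither; black bars are list medians, which run from 0.73 to 1.59 in the cytoskeleton lists and from -1.94 to 0.01 in the metabolism lists.

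Of the oxidative phosphorylation genes 31 of 58 nuclear-encoded subunits were lower, none was higher, and the median log2 fold change was -1.09. Many lay close to the threshold, and 16 were called lower when libraries were scaled by their totals alone. Uqcrh, a subunit of complex III, measured 309, 298, 234 and 336 CPM in glomeruli and 854, 838, 716 and 707 CPM in whole kidney (log2FC -1.40 ± 0.17, FDR 0.000283). Atp5c1, a subunit of ATP synthase, measured 130, 190, 188 and 131 CPM in glomeruli and 494, 500, 454 and 436 CPM in whole kidney (log2FC -1.56 ± 0.20, FDR 0.000319). Ndufa13, a subunit of complex I, was lower (log2FC -1.22 ± 0.16, FDR 0.000492), a call that scaling by totals alone ended. Of the mitochondrially encoded genes 6 of 10 tested were lower and none higher; the 15 genes of the list together took 4.83 to 6.33% of glomerular counts and 13.1 to 14.2% of whole kidney counts. mt-Nd4, a complex I subunit, measured 12300, 14800, 14700 and 14100 CPM in glomeruli and 40100, 50600, 46600 and 45600 CPM in whole kidney (log2FC -1.71 ± 0.15, FDR 3.81e-05). For mt-Cytb, of complex III, the values were 7880, 12200, 8820 and 6730 CPM in glomeruli and 32400, 35800, 31600 and 29600 CPM in whole kidney (log2FC -1.86 ± 0.20, FDR 0.000128). For fatty acid oxidation and ketone bodies 15 of 29 were lower and none higher (median -1.65). Hadh, which carries out the third step of beta oxidation, measured 144, 148, 121 and 98.9 CPM in glomeruli and 527, 467, 473 and 476 CPM in whole kidney (log2FC -1.92 ± 0.19, FDR 6.77e-05). Etfa, which passes the electrons on, was at 12.2, 13.9, 18.4 and 11.5 CPM against 176, 79.9, 129 and 100 (log2FC -3.11 ± 0.35, FDR 0.000151). Acsm2, an acyl-CoA synthetase of the proximal tubule, was at 792, 656, 684 and 1580 CPM, with 100 well above the others, against 5120, 5030, 5600 and 6300 (log2FC -2.57 ± 0.29, FDR 0.000158). Oxct1, with which tissues burn ketone bodies, was lower (log2FC -1.82 ± 0.21, FDR 0.000192). Peroxisomal genes were lower for 14 of 34 and higher for 1. Pecr, of fatty acid chain elongation, measured 133, 160, 141 and 118 CPM in glomeruli and 797, 934, 680 and 715 CPM in whole kidney (log2FC -2.50 ± 0.19, FDR 1.14e-05). Amacr, a racemase of branched acids, was lower (log2FC -3.05 ± 0.37, FDR 0.000234) and Pex14, of peroxisomal import, higher (log2FC 1.66 ± 0.32, FDR 0.00342).

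Amino acid catabolism, for which the proximal tubule is a main site, had 24 of 42 members lower and none higher (median -1.73). Acy3, an aminoacylase, measured 999, 472, 759 and 541 CPM in glomeruli and 3600, 4100, 3640 and 4080 CPM in whole kidney (log2FC -2.48 ± 0.24, FDR 6.41e-05). Hgd, an enzyme of tyrosine breakdown, was lower as well (log2FC -1.93 ± 0.30, FDR 0.00108). Glutathione and antioxidant genes were lower for 14 of 32 and higher for none. Gclc, the rate-limiting enzyme of glutathione synthesis, measured 27.8, 33.9, 54.4 and 17.5 CPM in glomeruli and 453, 379, 263 and 383 CPM in whole kidney (log2FC -3.47 ± 0.36, FDR 8.89e-05). Ggt1, which breaks glutathione down at the brush border, measured 123, 86.4, 268 and 137 CPM against 974, 1270, 1010 and 1000 (log2FC -2.79 ± 0.33, FDR 0.000202). Catalase (Cat) was lower (log2FC -1.81 ± 0.24, FDR 0.000469), and so was the selenium carrier Selenop (log2FC -1.65 ± 0.21, FDR 0.00033). Drug metabolism had 26 of 46 members lower and 3 higher, and the lowest list median of metabolism at -1.94. Cyp2j5, a P450 epoxygenase of the mouse kidney, measured 263, 244, 223 and 256 CPM in glomeruli and 1380, 1750, 1470 and 1430 CPM in whole kidney (log2FC -2.61 ± 0.16, FDR 3.86e-06). The glucuronosyltransferase Ugt2b38 measured 18.7, 35.9, 44.4 and 35.7 CPM against 406, 221, 246 and 343 (log2FC -3.17 ± 0.33, FDR 8.71e-05) and Fmo2, a monooxygenase, was lower (log2FC -2.37 ± 0.25, FDR 0.000105). These gene families hold close copies, whose reads the counting may have split. Against that direction stood Ephx1, microsomal epoxide hydrolase, at 219, 87.9, 243 and 138 CPM in glomeruli and 36.8, 24.7, 44 and 46.3 CPM in whole kidney (log2FC 2.18 ± 0.36, FDR 0.00181), and the glutathione transferase Gstm2 (log2FC 1.46 ± 0.25, FDR 0.00235).

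Lipid genes were less uniform. Cholesterol and fatty acid synthesis had 7 lower and 1 higher of 30 (median -1.59). Hmgcs1, an early step of the mevalonate pathway, was lower at 135, 237, 121 and 169 CPM in glomeruli and 567, 629, 536 and 595 CPM in whole kidney (log2FC -1.81 ± 0.23, FDR 0.00033), and the elongase Elovl5 was higher (log2FC 1.41 ± 0.28, FDR 0.00441). Lipid uptake, storage and lipoprotein genes were 5 higher and 4 lower of 26, or 3 and 2 with any 1 whole kidney library left out, around a median of 0.01. Scarb1, the receptor for high-density lipoprotein, measured 74.6, 182, 54.9 and 56.7 CPM, highest in 96, against 18.8, 20, 15.9 and 12.9 (log2FC 2.45 ± 0.46, FDR 0.0032). Mgll, which frees fatty acids from monoglycerides, was 3.01-fold higher (log2FC 1.59 ± 0.23, FDR 0.000779). Cd36, the fatty acid translocase, was lower at 23.1, 7.69, 24.3 and 15.8 CPM in glomeruli and 237, 164, 201 and 231 CPM in whole kidney (log2FC -3.55 ± 0.38, FDR 0.000102). Of the prostaglandin and eicosanoid genes 2 were higher and 4 lower of 22, with the soluble epoxide hydrolase Ephx2 lower (log2FC -2.23 ± 0.24, FDR 0.000132) where its microsomal relative Ephx1 was higher. Over all genes tested 11.6% were higher and 10.1% lower. The cyclooxygenase Ptgs1 and the prostaglandin synthases Ptgds, Ptges and Ptgis were not called. Retinoid handling had 1 higher and 4 lower of 19 (7 lower without glomerular 96, 2 without whole kidney 98 or 100). Adh1, an alcohol dehydrogenase that oxidises retinol, measured 165, 151, 145 and 11.8 CPM in glomeruli, lowest in 100, against 748, 768, 754 and 1070 (log2FC -2.82 ± 0.61, FDR 0.0068).

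Of the solute transporters of the tubule 37 of 56 were lower and none higher (median -1.82). Slc22a6, the organic anion uptake carrier of the proximal tubule, measured 117, 84.6, 103 and 135 CPM in glomeruli and 932, 1240, 1050 and 1050 CPM in whole kidney (log2FC -3.28 ± 0.20, FDR 4.21e-06). Slc13a2, the citrate carrier of the brush border, measured 0.483, 1.59, 2.2 and 1.87 CPM in glomeruli and 121, 141, 91.6 and 72.2 CPM in whole kidney (log2FC -6.10 ± 0.53, FDR 3.37e-05), a whole kidney mean 69.4 times that of glomeruli. Slc22a7, another organic anion carrier, was lower by a factor of 39.2 (log2FC -5.29 ± 0.43, FDR 2.1e-05). For Slc17a3, a urate exporter, the factor was 9.55. These carriers thus differed in how far glomeruli lay below whole kidney. Pumps and water channels had 17 lower and 4 higher of 34. Subunits of the sodium pump went in opposite directions: Atp1b1, its beta chain in epithelia, measured 626, 700, 580 and 867 CPM in glomeruli and 2490, 3150, 2500 and 2730 CPM in whole kidney (log2FC -1.97 ± 0.18, FDR 4e-05). The alternative beta chain Atp1b2 measured 112, 170, 94.6 and 56.7 CPM in glomeruli and 12.1, 11.7, 16 and 13.8 CPM in whole kidney (log2FC 3.01 ± 0.39, FDR 0.000351). Among the FXYD regulators of the pump Fxyd5 was 5.38-fold higher (log2FC 2.43 ± 0.39, FDR 0.00148). The water channel Aqp1 measured 162, 58.3, 142 and 66.7 CPM against 693, 827, 654 and 638 (log2FC -2.71 ± 0.34, FDR 0.000307). Car4, the membrane carbonic anhydrase of bicarbonate reclamation, was lower (log2FC -2.69 ± 0.24, FDR 3.49e-05). Genes of endocytosis and caveolae were called in both directions, 7 higher and 2 lower of 35. The share lower was below the 10.1% over all genes. Among the higher members the caveolar coat protein Cavin3 measured 156, 128, 149 and 149 CPM in glomeruli and 22.6, 22.1, 24.9 and 24.6 CPM in whole kidney (log2FC 2.62 ± 0.23, FDR 3.52e-05). The caveola-associated ATPase Ehd2 measured 171, 155, 116 and 193 CPM in glomeruli and 7.97, 12.1, 12.1 and 13.5 CPM in whole kidney (log2FC 3.80 ± 0.30, FDR 1.82e-05). Both lower members were receptors that retrieve filtered protein in the proximal tubule. Lrp2, megalin, measured 207, 172, 127 and 114 CPM in glomeruli and 916, 645, 798 and 738 CPM in whole kidney (log2FC -2.32 ± 0.23, FDR 7.48e-05). Cubn, cubilin, measured 13.6, 0.398, 0.439 and 1.6 CPM in glomeruli and 119, 80.5, 102 and 84.4 CPM in whole kidney, with 13.6 CPM in glomerular 93 standing above the other 3 (log2FC -4.58 ± 1.05, FDR 0.00902).

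Defence and blood-facing genes were called more often higher than lower, 20 against 4 of 73. The coagulation and fibrinolysis list had 8 of 23 members higher and 1 lower. Plat, tissue plasminogen activator, measured 184, 532, 169 and 74.7 CPM, highest in 96, against 26.8, 6.58, 17.6 and 17.5 (log2FC 3.80 ± 0.63, FDR 0.00176). Thrombomodulin (Thbd) measured 153, 133, 85.1 and 62 CPM in glomeruli and 24.3, 19.6, 15.9 and 15 CPM in whole kidney (log2FC 2.53 ± 0.37, FDR 0.000816). Anxa2, a surface receptor for plasminogen and its activator, measured 884, 427, 636 and 785 CPM in glomeruli and 66.5, 69.1, 85.5 and 88.6 CPM in whole kidney (log2FC 3.14 ± 0.26, FDR 2.21e-05). Complement genes were 2 higher and 3 lower of 17, the share higher being near the 11.6% over all genes. Cd59a, which blocks the membrane attack complex, measured 434, 641, 557 and 476 CPM in glomeruli and 88.4, 111, 122 and 103 CPM in whole kidney (log2FC 2.31 ± 0.20, FDR 3.1e-05). C3, the central component, measured 174, 294, 135 and 24.3 CPM against 13.1, 21.2, 28.2 and 23.6, and its value in glomerular 100 fell within the whole kidney range (log2FC 2.86 ± 0.61, FDR 0.00636). Antigen presentation and interferon-stimulated genes were higher for 10 of 33 and lower for none. The antiviral membrane protein Ifitm3 measured 1100, 1020, 819 and 980 CPM in glomeruli and 152, 282, 159 and 157 CPM in whole kidney (log2FC 2.38 ± 0.24, FDR 7.69e-05). The endothelial surface protein Ly6c1 (log2FC 1.72 ± 0.20, FDR 0.000202) and the class I molecule H2-D1 (log2FC 1.36 ± 0.25, FDR 0.00306) were higher as well.

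Cell cycle genes had 5 higher and 1 lower of 27, and those higher held both brakes and drivers. Cdkn1c, the cyclin-dependent kinase inhibitor p57 that marks the resting podocyte, measured 965, 651, 883 and 997 CPM in glomeruli and 29.8, 35.3, 38.4 and 46.2 CPM in whole kidney (log2FC 4.55 ± 0.23, FDR 1.88e-06). Cyclin D2 (Ccnd2) measured 378, 363, 372 and 415 CPM in glomeruli and 70.5, 106, 89.2 and 105 CPM in whole kidney (log2FC 2.04 ± 0.20, FDR 6.16e-05). E2f1, a driver of S phase, measured 93.2, 93.1, 83.6 and 117 CPM in glomeruli and 3.53, 8.68, 5.01 and 5.41 CPM in whole kidney (log2FC 4.09 ± 0.40, FDR 6.16e-05). The replication licensing gene Mcm3 was 7.55-fold higher (log2FC 2.92 ± 0.47, FDR 0.00158). Protein folding and secretion had 7 members higher and 2 lower of 33 and a median of 0.09, and the collagen-modifying enzyme Plod3 led the higher members (log2FC 2.39 ± 0.35, FDR 0.000785). Cytoplasmic ribosomal protein genes, by symbol, showed little difference: of 84 tested none was higher, 5 were lower and the median was 0, with 2.8 to 3.81% of the counts in glomeruli and 2.65 to 2.86% in whole kidney.

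Outside the lists, the named genes with the largest fold changes in glomeruli, none of whose 4 libraries was under 10 CPM, included several without a settled role in the kidney. Nxph3, a neurexophilin secreted by neurons, measured 98.2, 32.5, 66.1 and 69.2 CPM in glomeruli and 1.05, 0.15, 0.778 and 1.44 CPM in whole kidney (log2FC 6.25 ± 0.72, FDR 0.000181). Shisa3, an inhibitor of Wnt and FGF receptor traffic, measured 190, 283, 222 and 467 CPM in glomeruli and 3.4, 6.13, 5.97 and 4.81 CPM in whole kidney (log2FC 5.83 ± 0.39, FDR 6.43e-06). Msmp, a small secreted protein, measured 136, 225, 163 and 135 CPM in glomeruli and 4.44, 3.29, 2.94 and 1.44 CPM in whole kidney (log2FC 5.76 ± 0.42, FDR 1.01e-05). The forkhead gene Foxd2 measured 255, 82.7, 114 and 230 CPM in glomeruli and 2.22, 3.14, 3.2 and 4.33 CPM in whole kidney (log2FC 5.72 ± 0.47, FDR 2.43e-05). Myl7, the atrial myosin light chain, measured 155, 108, 35.9 and 87 CPM against 2.87, 0.449, 2.07 and 2.04 (log2FC 5.67 ± 0.67, FDR 0.000205). The kinesin Kif21b measured 54.5, 98, 16.9 and 18.4 CPM, with 96 the highest, against 0.261, 0.898, 0.692 and 1.08 (log2FC 5.97 ± 0.87, FDR 0.000814). In each of these 6 genes all 4 glomerular libraries lay above all 4 whole kidney libraries. At the other end were genes with almost no counts in glomeruli. Tmem207, a membrane protein, had no glomerular count against 11.2, 25.3, 17.5 and 19.6 CPM in whole kidney, at least 213-fold lower (FDR 0.00175). Slc14a2, the urea transporter of the inner medulla, had 2 counts over the 4 glomerular libraries against 19.1, 32.5, 31.5 and 28.1 CPM in whole kidney, a pooled ratio of 487 (95% counting interval 134 to 4030) at FDR 0.00044. Akr1c18, a hydroxysteroid dehydrogenase, had 2 counts against 38.1, 41.3, 22 and 30.5 CPM, a pooled ratio of 545 (95% counting interval 151 to 4510) at FDR 0.000265. Bcat1, the cytosolic branched-chain aminotransferase, had 2 counts against 25.1, 27.1, 22.1 and 32.8 CPM, a pooled ratio of 457 (95% counting interval 126 to 3780) at FDR 0.000359. Counting intervals pool the reads of a group and leave out the spread between libraries and copies made by PCR, so they are too narrow. Nccrp1, an F-box-like protein of epithelia, was at 0.241, 0.265, 0.703 and 0 CPM against 60.9, 86.8, 36.7 and 46.5 (log2FC -7.44 ± 0.88, FDR 0.000213). In each of these 5 genes every whole kidney library was above 10 CPM and every glomerular library below 1 CPM.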

How the data were processed

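3′ mRNA libraries (QuantSeq FWD) of glomeruli cut by laser from hematoxylin-stained cryosections and of whole kidney sections were compared. The deposited values are whole-number counts of reads per gene, which the authors made by trimming with bbduk, alignment to GRCm38.p6 with STAR (version 2.7) and counting with htseq-count (version 0.13). No source used here gives the strand setting of the counting, so overlapping genes cannot be told apart. Reads carry no molecular identifiers that were counted, so precision covers counting error and sample spread only. The counting intervals cover counting error alone. Columns were matched to groups by the header lines of the table, which do not say which labelled replicate each is. A further 148 columns of other experiments in the table were not used.

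Counts of the 8 libraries were filtered with filterByExpr, scaled by TMM and tested with edgeR 4.0.16 in R 4.3.3 (glmQLFit and glmQLFTest, Benjamini-Hochberg adjustment over 13041 genes), without a block. The script was tested on simulated data. Members and lists were chosen with earlier results of these data known. Per list, up to 4 called members with the smallest p in the main direction and up to 2 of the other were eligible for naming, and of genes in no list the 12 highest and 12 lowest with at least 10 CPM in all 4 libraries of the higher group. Other genes, those given as not called included, were named after their values were seen. Group values used exact permutation tests. The alternatives were other scalings, filters, thresholds and sample sets, DESeq2 1.42.0, thinning, a replicate block and leaving out each library. The numbers 93 to 100 were not taken as pairs, since no label ties them to a mouse and correlations of same-numbered deviations ran only from -0.0299 to 0.0716. Some genes and 1 gene list are not reported here.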

Additional observations from a re-analysis of the deposited data

Results flagged for a closer look

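Among the genes named, each group of 4 libraries was searched for 1 library far from the other 3, by the gap to the nearest of them divided by the group's whole range, against Dixon's critical value. Of 390 groups 33 were picked out, and chance alone picks out about 5% of groups. Dcn was highest in glomeruli 96 at 71.9 CPM, with 26.8 to 32.2 in the other 3 (ratio 0.88). Rhpn1 was lowest in glomeruli 98 at 212 CPM, with 442 to 478 in the other 3 (ratio 0.862). Des was highest in whole kidney 96 at 25.7 CPM, with 10.3 to 10.7 in the other 3 (ratio 0.972). Gpc1 was lowest in glomeruli 100 at 44.5 CPM, with 110 to 111 in the other 3 (ratio 0.983). Pard3b was highest in glomeruli 100 at 868 CPM, with 213 to 270 in the other 3 (ratio 0.912). Jun was highest in whole kidney 100 at 57.6 CPM, with 25.4 to 27.4 in the other 3 (ratio 0.939). Scarb1 was highest in glomeruli 96 at 182 CPM, with 54.9 to 74.6 in the other 3 (ratio 0.846). Adh1 was lowest in glomeruli 100 at 11.8 CPM, with 145 to 165 in the other 3 (ratio 0.87). Cubn was highest in glomeruli 93 at 13.6 CPM, with 0.398 to 1.6 in the other 3 (ratio 0.909). Plau was highest in glomeruli 93 at 37.9 CPM, with 10.2 to 14.9 in the other 3 (ratio 0.831).

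The other values were less far off, the library being within 2 times of the library nearest to it. Glomeruli 100 was highest for Acsm2 (0.853). Glomeruli 100 was lowest for Srgap1 (0.844). Glomeruli 93 was highest for Tuba1b (0.852) and Fmo2 (0.839). Glomeruli 93 was lowest for Igfbp5 (0.829). Glomeruli 96 was highest for Sema4c (0.836). Glomeruli 96 was lowest for Cd151 (0.922). Whole kidney 100 was highest for Adcy4 (0.85) and Adh1 (0.936). Whole kidney 93 was highest for Npr1 (0.832), Tpi1 (0.861), Hadh (0.86) and Plau (0.872). Whole kidney 93 was lowest for Amotl1 (0.942) and Mgll (0.872). Whole kidney 96 was highest for Timp2 (0.895), Icam2 (0.843), Oxct1 (0.853), Ggt1 (0.869) and Ifitm3 (0.953). Whole kidney 96 was lowest for Adamts5 (0.83) and Gk (0.871). Whole kidney 98 was highest for Igfbp5 (0.87).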

How the results depend on the processing

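The counts of 1508 higher and 1319 lower genes stayed within 1.5 times under RLE size factors (1445 and 1353), without mitochondrially encoded and hemoglobin genes, after thinning to the smallest library total, with no minimum fold change and when libraries were scaled by their totals alone. With every gene of at least 1 count 2645 genes were lower, and DESeq2 called 2132 higher and 3080 lower. All 20 libraries fitted together gave 219 higher and 203 lower, and an FDR under 0.01 gave 958 and 866. With the number in the column names as a replicate block 1038 genes were higher and 1194 lower, and no label says that a number marks a shared mouse. Leaving out 1 library gave 1083 to 1830 higher and 1056 to 1956 lower genes, with all counts under the main ones when the library came from whole kidney and above when it came from glomeruli. The number of detected genes, glomeruli minus whole kidney, was -5794.75 on average and between -6134.17 and -5400.17 with 1 library left out, where 3 against 4 samples cannot reach an exact p under 0.0571. Of the 325 genes picked by the naming rule none changed sign, 151 were called in every setting, 131 lost the call only in the fit of 20 libraries and 30 lost it with 1 library left out. The cause of these changes was not tested, other than that the settings differ in the genes or samples they use.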
